A study of Saccharomyces cerevisiae with 3 samples.

Results

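The tricarboxylic acid cycle enzymes described here are 10 nuclear genes, CIT1, CIT3, ACO1, IDH1, IDH2, KGD1, KGD2, LSC1, FUM1 and MDH1, chosen by gene symbol from the annotation of the array. The rule uses no measured value, but the list was drawn up with earlier results of these data known. They are 10 of 5574 genes of budding yeast, Saccharomyces cerevisiae, that had a value on any of the arrays. All 10 were found on the G0 and Y5 arrays (14 spots) and 9 on the Y10 array (9 spots), where MDH1 had no value in the spots used. The study dealt with yeast transferred rapidly from a sugar it ferments to a carbon source it must respire. It comprised 3 samples, G0, Y5 and Y10, with 1 two-colour array each, and the letters and numbers of these names, the strain, the genotype, the medium and the time of sampling are not given in the sources used. On each array the Cy3 channel carried RNA of the mRNP fraction (messenger ribonucleoprotein, mRNA not loaded with many ribosomes) and the Cy5 channel RNA of the fraction labelled Poly, read here as polysomes, so a spot compares both fractions of the same sample. There was no replicate array and no dye swap. No test across arrays was possible, and every difference below is between single arrays.

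The tricarboxylic acid cycle runs in the mitochondrial matrix. It joins acetyl-CoA to oxaloacetate, oxidises the product back to oxaloacetate and hands the electrons to the respiratory chain. Yeast fermenting glucose uses the cycle largely to make precursors such as 2-oxoglutarate for amino acid synthesis and represses many of its genes, whereas on a nonfermentable carbon source the cycle is needed for energy. The enzymes are encoded in the nucleus, translated on cytosolic ribosomes and imported, so the share of their mRNAs on polysomes is one of the steps that set their synthesis.

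Values are log2 ratios of the fractions relative to the median of the array. A ratio, not an amount of mRNA, is compared throughout, and a lower ratio can come from less mRNA on polysomes or more in the mRNP fraction, which cannot be told apart. The direction is likely polysome over mRNP (Cy5 over Cy3). The basis is that the labels link each array image to the Stanford Microarray Database, whose usual value is the log2 of the red over the green channel, but neither the base nor the direction is given with the values, and the array titles name mRNP first. With the opposite direction all signs given here would reverse. The technical error of a single spot, taken from genes with 2 spots on the array, was an SD of 0.45 on G0 (882 genes), 0.40 on Y5 (886 genes) and 0.44 on Y10 (453 genes). For a difference between arrays the SD was 0.45 (Y5 minus G0), 0.63 (Y10 minus G0) or 0.56 (Y10 minus Y5). It leaves out the spread between cultures and between hybridisations. The row numbers of Y10 did not match those of the other arrays and were renumbered (r across spots with Y5 0.463 after renumbering and 0.0155 before, and with G0 0.211 after and 0.0374 before). In the 9 sectors of the array that held a Y10 spot of these genes, the renumbered values correlated with Y5 at r between 0.479 and 0.774. Every Y10 value rests on this inferred numbering.

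On G0 the cycle enzyme mRNAs lay high. The median of the 10 genes was 1.29, against 0.01 for all 5548 genes of that array, and 9 genes lay above the array median. Of the 10 genes, 8 lay at least 1 log2 unit above it, where 9.26% of all genes did. On Y5 the median of the same 10 genes was 0.31, with 8 genes above the array median and 1 at least 1 unit above it (6.58% of all genes). On Y10 the median of 9 genes was −0.16, with 2 genes above the array median and 1 at least 1 unit above it (2.81% of all genes). The genes thus lay at the upper end of the G0 array, apart from CIT3, and near the middle of the Y10 array, where CIT1 was higher than the next gene by more than the technical SD of such a gap. The other neighbours on Y10, CIT3 included, could not be ordered.

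**Figure D1:**
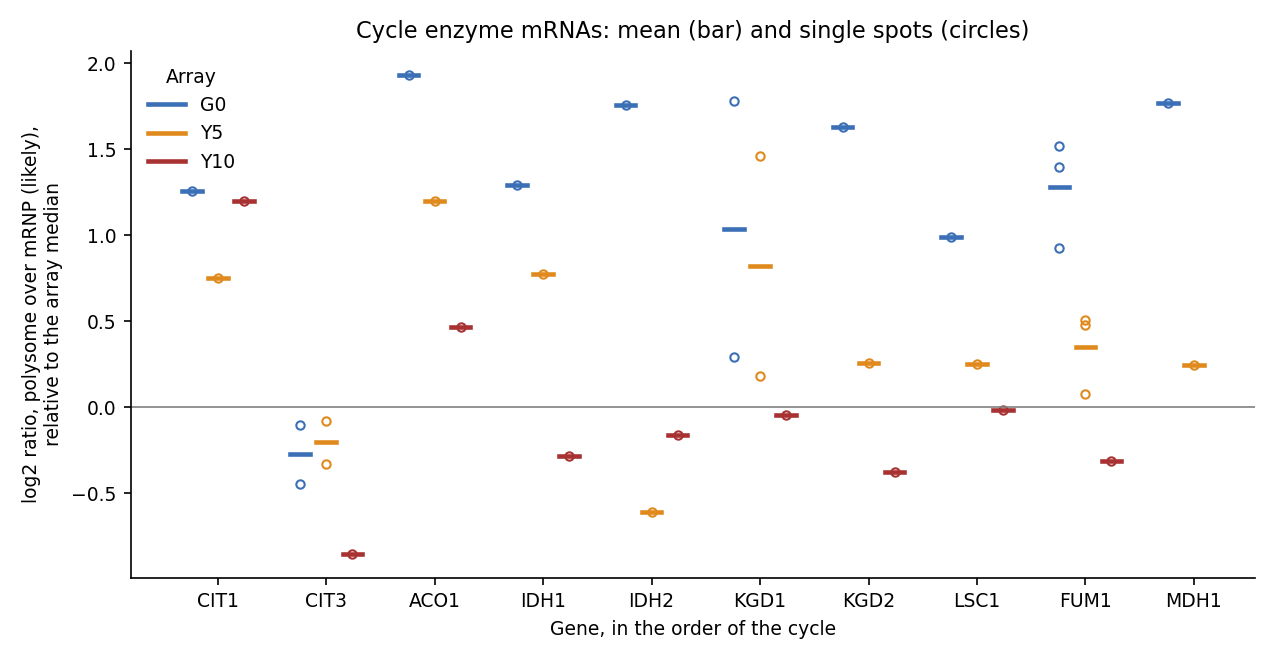
Log2 ratio of polysome over mRNP RNA (vertical axis, relative to the array median, direction likely) for each cycle enzyme gene (horizontal axis) on G0 (blue), Y5 (orange) and Y10 (red). Bars are the mean over the spots of a gene and circles the single spots. On G0 all genes but CIT3 lie at 0.99 or above, and on Y10 all genes but CIT1 (1.20) and ACO1 (0.47) lie below 0.

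Citrate synthase opens the cycle by joining acetyl-CoA and oxaloacetate. CIT1 (YNR001C), the main mitochondrial citrate synthase, had a ratio of 1.26 on G0, 0.75 on Y5 and 1.20 on Y10, each from 1 spot. It was the highest of the 9 genes on Y10, at percentile 98.2 of that array, and its Y10 minus G0 difference was −0.05. CIT1 therefore stood about as far above the array median on Y10 as on G0, and its lower value on Y5 (difference −0.51) was close to the technical SD of 0.45. After scaling the arrays to a common spread its Y10 minus G0 difference was 0.51, and with quantile normalization 0.44, so the sign of this small difference depends on the scaling.

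CIT3 (YPR001W), a mitochondrial citrate and methylcitrate synthase, was the only one of the 10 genes below the median on all 3 arrays. Its ratio was −0.27 on G0 (spots at −0.45 and −0.10), −0.20 on Y5 (−0.08 and −0.33) and −0.85 on Y10 (1 spot). On G0 it lay 1.27 below the next gene of the set, LSC1, and on the other side of the array median. CIT1 exceeded CIT3 by 1.53 on G0, 0.95 on Y5 and 2.05 on Y10, against technical SDs of such a gap of 0.55, 0.49 and 0.62. The low Y10 value of CIT3 rests on a spot whose repeat, placed less surely, stood at 0.78. With that repeat included the Y10 minus G0 difference of CIT3 went from −0.58 to 0.23.

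Aconitase, ACO1 (YLR304C), turns citrate into isocitrate and also binds mitochondrial DNA. It had a ratio of 1.93 on G0, 1.20 on Y5 and 0.47 on Y10 (1 spot). It had the highest value of the set on G0 and Y5 and the next after CIT1 on Y10, but its gaps to the genes below it (0.17, 0.38 and 0.48) were within the technical SD of a gap (0.64, 0.57 and 0.62). Its ratio was lower at each step, with differences of −0.74 and −0.73, and Y10 minus G0 was −1.47. Even so, ACO1 remained at percentile 85.2 on Y10, so this mRNA was still in the upper part of the array.

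NAD-dependent isocitrate dehydrogenase is an octamer of the regulatory subunit Idh1 and the catalytic subunit Idh2. IDH1 (YNL037C) had a ratio of 1.29 on G0, 0.78 on Y5 and −0.28 on Y10 (1 spot). IDH2 (YOR136W) had a ratio of 1.76 on G0, −0.61 on Y5 and −0.16 on Y10 (1 spot). The partners lay within 0.46 of each other on G0 and 0.12 on Y10, both under the technical SD of such a gap, but on Y5 IDH1 lay 1.39 above IDH2, against a technical SD of 0.57. On Y5, IDH1 was at percentile 89.8 and IDH2 at percentile 16.4. The Y5 minus G0 difference of IDH2, −2.37, was the largest of the set (a 5.15-fold lower ratio if the values are log2), and that of IDH1 was −0.52. From Y5 to Y10 the differences were −1.06 for IDH1 and 0.45 for IDH2. Each subunit had a single spot, so the gap on Y5 has no repeat on the array. After centring each sector of the arrays on its own median, the Y5 minus G0 difference of IDH2 was −1.78. The Y10 minus Y5 differences were then −0.32 for IDH1 and 0.11 for IDH2.

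The 2-oxoglutarate dehydrogenase complex makes succinyl-CoA. KGD1 (YIL125W) encodes its dehydrogenase component E1 and KGD2 (YDR148C) its succinyltransferase component E2. KGD2 had a ratio of 1.63 on G0, 0.26 on Y5 and −0.37 on Y10 (1 spot), and its Y10 minus G0 difference was −2.0, or −1.36 with sector centring. This lay within the technical SD of a gap from that of IDH2 (−1.92), so these genes could not be ordered. KGD1 averaged 1.04 on G0, 0.82 on Y5 and −0.05 on Y10, but its spots disagreed. One spot gave 1.78 on G0 and 1.46 on Y5 with no Y10 value, and the other gave 0.29, 0.18 and −0.05. Averaged over the spots of each array, the Y10 minus G0 difference of KGD1 was −1.08, whereas the spot measured on all 3 arrays gave −0.34. The average over unequal spots thus put KGD1 past 1 log2 unit, and the shared spot did not. Between G0 and Y5, where both spots were measured, they gave −0.32 and −0.11.

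Succinyl-CoA ligase makes succinate and ATP. LSC1 (YOR142W), its alpha subunit, had a ratio of 0.99 on G0, 0.25 on Y5 and −0.01 on Y10 (1 spot). LSC2, the beta subunit and not among the 10 genes, had 1.32, 0.17 and 0.09, within 0.32 of LSC1 on every array and under the technical SD of such a gap. The partners of this enzyme stayed side by side on the 3 arrays. The Y10 minus G0 difference of LSC1, −1.01, only just passed 1 log2 unit and was −0.85 after scaling to a common spread, −0.82 with quantile normalization and −0.99 with centring on genes measured on all 3 arrays.

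Fumarase, FUM1 (YPL262W), turns fumarate into malate in mitochondria and is also found in the cytosol. It had 3 spots, with ratios of 0.93, 1.40 and 1.52 on G0 and 0.08, 0.48 and 0.51 on Y5. The G0 spots all lay above the Y5 spots. The mean was 1.28 on G0 and 0.35 on Y5, and the spots differed between these arrays by −0.85, −0.92 and −1.01. This is the gene of the set with the most repeat measurements, and its Y5 minus G0 difference was −0.93. The single spot used on Y10 stood at −0.31, a difference of −1.71 from the same spot on G0. A repeat among the Y10 spots placed less surely stood at 0.11.

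Mitochondrial malate dehydrogenase, MDH1 (YKL085W), closes the cycle by oxidising malate to oxaloacetate. It had a ratio of 1.77 on G0 and 0.25 on Y5 (1 spot), a difference of −1.52. On Y10 its spot lies among those placed less surely, where it stood at 0.15.

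**Figure D2:**
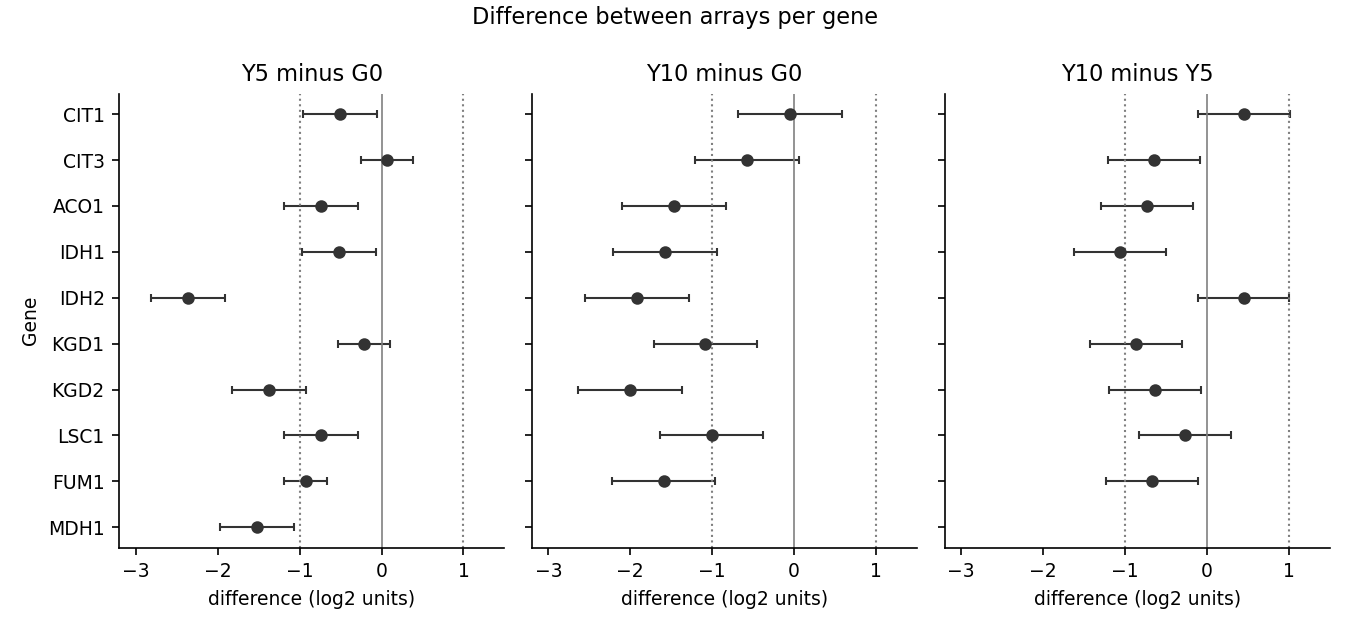
Difference of the log2 ratio between arrays (horizontal axis, log2 units) per gene (vertical axis) for Y5 minus G0, Y10 minus G0 and Y10 minus Y5. Horizontal bars are the technical SD from repeat spots, divided by the square root of the number of spots, and leave out the disagreement of the KGD1 spots. Dotted lines mark 1 log2 unit, which 3, 7 and 1 genes passed, all on the lower side.

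Between G0 and Y5 the median difference of the 10 genes was −0.74, against −0.01 over all 5546 genes. Of the 10 genes 9 were below 0, where 50.4% of all genes were. IDH2 (−2.37), KGD2 (−1.37) and MDH1 (−1.52), 3 of 10, were lower by at least 1 log2 unit, where 10.5% of all genes were, and 0 were higher by that much (4.02% of all genes). These genes kept a difference of at least 1 unit under all 8 alternative settings run, but not every setting could lose the call. Each gene had 1 spot, so the settings that choose among spots returned the same value, and the natural logarithm enlarges every difference. The differences nearest 0 were −1.78 for IDH2, −1.12 for KGD2 and −1.25 for MDH1. Ranked by the difference, only IDH2 was set off from its neighbour, MDH1, by more than the technical SD of a gap between genes with 1 spot (0.85 against 0.64), and the other neighbours could not be ordered.

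The G0 value is subtracted in these differences, so they are not independent of a high G0 ratio. Of the 10 genes 9, all but CIT3, were in the top 10% of genes on G0. Among the other genes in that top 10% the median Y5 minus G0 difference was −0.76 (544 genes) and 42.1% were lower by at least 1 unit. The median of the cycle enzymes was about the same as that of the other genes with high G0 ratios, and the share past 1 unit, 3 of 10, was no higher.

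Between G0 and Y10 all 9 genes were below 0 (51.9% of all genes), with a median of −1.47 against −0.03 over 4427 genes. At least 1 log2 unit lower were 7 of 9, namely ACO1 (−1.47), IDH1 (−1.58), IDH2 (−1.92), KGD1 (−1.08), KGD2 (−2.0), LSC1 (−1.01) and FUM1 (−1.59), where 12.1% of all genes were. None was higher by that much (6.51% of all genes). The count was 6 of 9 when only spots with a value on both arrays were used, and 5 of 9 after scaling to a common spread or quantile normalization. With sector centring IDH1 stood at −0.90. Among the other genes in the top 10% on G0 the median was −1.08 and 54.9% of 426 were at least 1 unit lower. Using the deposited row numbers of Y10, under which that array was unrelated to G0 (r = 0.0374 across spots, against 0.211 as renumbered), 8 genes had a value, their median was −1.03 and 4 of them were at least 1 unit lower, where 15.5% of 5083 genes were. A Y10 column in a numbering unrelated to G0 thus also gave a negative median.

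Between Y5 and Y10, a comparison that does not use G0, the median of the 9 genes was −0.65, against 0.01 over 4435 genes. Y5 is subtracted in its place, and most of these genes also lay above the array median on Y5. Other genes with high Y5 ratios were not examined separately. Below 0 were 7 of 9 genes (49.6% of all genes), and CIT1 (0.45) and IDH2 (0.45) were above it. IDH1, at −1.06, was the only one of the 9 past 1 log2 unit, where 5.3% of all genes were lower and 3.77% higher by that much. With sector centring the median was −0.16 and no gene passed 1 unit. Over all 3 arrays 6 of 9 genes, ACO1, IDH1, KGD1, KGD2, LSC1 and FUM1, were lower on Y5 than on G0 and lower again on Y10, an order found in 20.2% of 4425 genes. That share is over all genes, and the share among genes with high G0 ratios was not computed. The steps of KGD1 from G0 to Y5 (−0.22) and of LSC1 from Y5 to Y10 (−0.27) were within the single-spot technical SD (0.45 and 0.56). From Y5 to Y10, KGD1 differed by −0.87 averaged over unequal spots, but the spot measured on both arrays gave −0.23, also under 0.56. IDH2 and CIT1 were lowest on Y5 and CIT3 on Y10, but the rises of IDH2 and CIT1 from Y5 to Y10 (0.45 each) were also under 0.56.

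**Figure D3:**
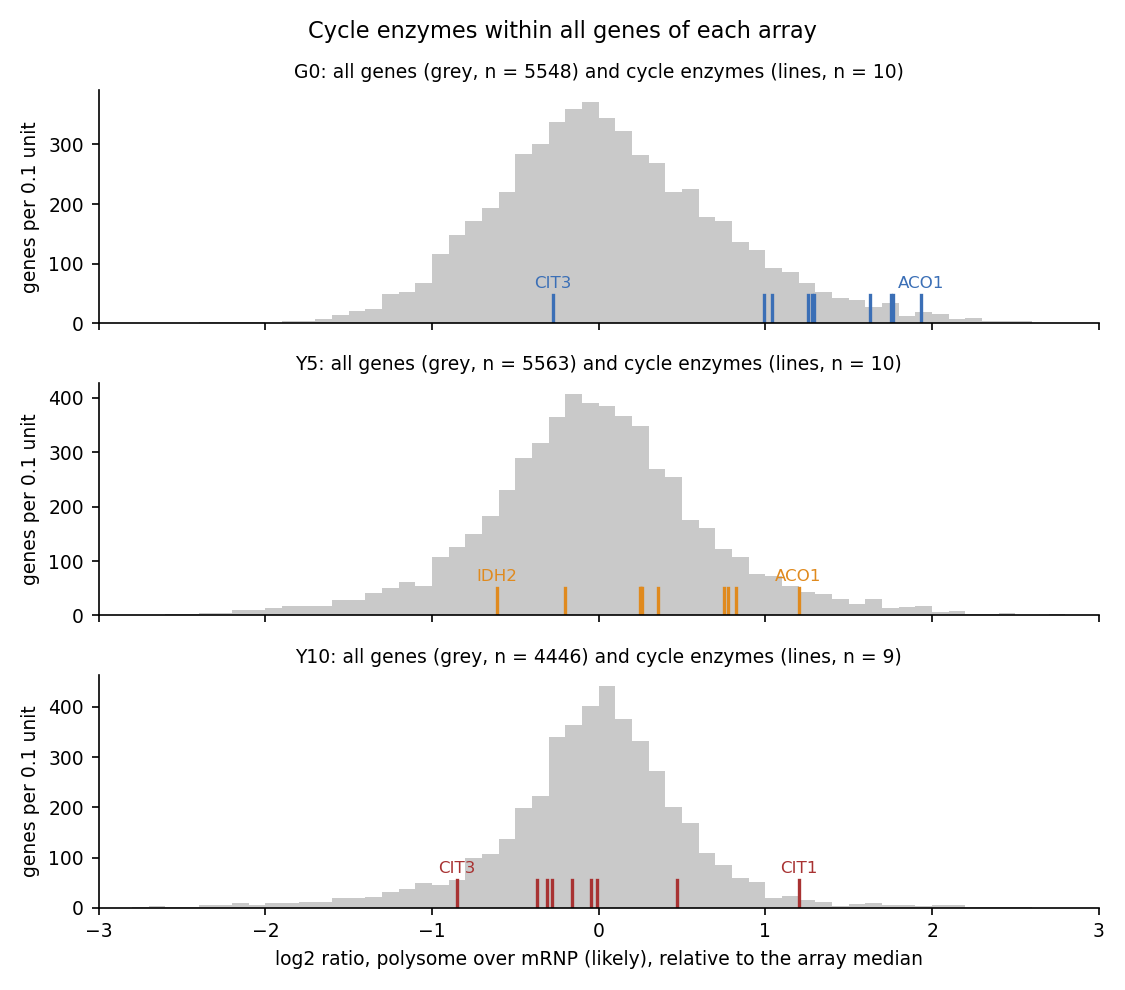
Number of genes (vertical axis, per 0.1 log2 unit) by log2 ratio (horizontal axis, relative to the array median) on G0, Y5 and Y10, with coloured lines at the cycle enzymes and the lowest and highest of them named. The lines lie in the right tail on G0 apart from CIT3 and near the middle on Y10 apart from CIT3 (−0.85) and CIT1 (1.20). Genes beyond −3 or 3 (4 on G0, 3 on Y5 and 4 on Y10) are not drawn.

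The 14 spots lay in 12 of the 32 sectors of the array. An effect of position was not tested, and sector centring moved the Y10 minus Y5 median from −0.65 to −0.16. The coding lengths of the 10 genes ran from 990 bases for LSC1 to 3045 for KGD1, with a median of 1416 against 1261.5 for all genes. Across genes, longer genes had higher ratios on each array (Spearman 0.317 on G0, 0.478 on Y5 and 0.344 on Y10). These are descriptions across genes of single arrays, and genes are not independent replicates. The differences from G0 were less related to length (0.124 for Y5 and −0.04 for Y10), and Y10 minus Y5 had −0.223. The genes nearest to the median profile of the 9 cycle enzymes on the 3 arrays (1.28, 0.35 and −0.16), by Euclidean distance, were EMC1, of the endoplasmic reticulum membrane complex (distance 0.15), PSA1, of GDP-mannose synthesis (0.17), MRP51, a mitochondrial ribosomal protein (0.18), SER1, of serine synthesis (0.20), and ADH6, an alcohol dehydrogenase (0.21). FUM1 was at 0.15, but its own values are the median on G0 and Y5. CIT1 (1.42), CIT3 (1.79), ACO1 (1.24) and IDH2 (1.07) were more than 1 log2 unit from it.

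The other subunits of the cycle's enzymes had medians near those of the 10 genes on G0 and Y5. A value on some array was used for 7 of them. On G0 the 6 with a value had a median of 1.27, and on Y5 0.24. All 6 were lower on Y5 than on G0, 5 by at least 1 log2 unit (10.5% of all genes), with a median of −1.25. Of genes outside the 10 in the top 10% on G0, 42.1% were lower by that much. Succinate dehydrogenase, which oxidises succinate and belongs to the respiratory chain as well, has a catalytic flavoprotein subunit, SDH1, an iron-sulfur subunit, SDH2, and membrane anchors, SDH3 and SDH4. The Y5 minus G0 difference was −1.04 for SDH1, −1.51 for SDH2, −1.46 for SDH3 and −1.36 for SDH4, so all subunits passed 1 unit on the same side. SDH4, the only one with a Y10 value, had ratios of 1.74, 0.38 and 0.04. LSC2 differed by −1.15 on Y5 and −1.23 on Y10. KGD4, a small subunit of 2-oxoglutarate dehydrogenase, differed by −0.30 and −0.80. LPD1, the dihydrolipoamide dehydrogenase shared by this complex and pyruvate dehydrogenase, had a Y10 value only, 0.39.

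Pyruvate dehydrogenase feeds acetyl-CoA to the cycle. PDA1, its E1 alpha subunit, had ratios of 2.16 on G0, −0.30 on Y5 and −0.52 on Y10. PDB1, E1 beta, had 1.97, 0.58 and −0.05. LAT1, the E2 acetyltransferase, had 1.77, −0.14 and 0.12 (2 spots). PDA1, PDB1 and LAT1 lay near or above the highest cycle enzymes on G0 and were lower by at least 1 unit on both later arrays. Of genes outside the 10 cycle enzymes in the top 10% on G0, 42.1% were lower by that much on Y5 and 54.9% on Y10. PDX1, another component of the complex, was not lower by 1 unit on either later array. It had ratios of 0.54, −0.10 and 0.07, with differences from G0 of −0.64 on Y5 and −0.47 on Y10. In the list of pyruvate entry and anaplerosis 3 of 9 genes were at least 1 unit lower on Y5 (10.5% of all genes) and 3 of 8 on Y10 (12.1%), and 1 of 8 was higher on Y10 (6.51%). The higher gene was MPC3, a subunit of the mitochondrial pyruvate carrier, at −1.40, −1.58 and 0.06, with a Y10 minus G0 difference of 1.45.

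Isoenzymes that catalyse cycle reactions elsewhere, or with another cofactor, differed among themselves. Of 8, 3 were at least 1 log2 unit lower on Y5 (10.5% of all genes). On Y10 1 of 6 was lower (12.1%) and 1 higher (6.51%). MDH3, the peroxisomal malate dehydrogenase, had 1.06 on G0, −0.66 on Y5 and −1.47 on Y10, a Y10 minus G0 difference of −2.53. MDH2, the cytosolic enzyme of gluconeogenesis, went the other way, with −0.38, 0.02 and 0.70 and a difference of 1.09. MDH1 lay 2.15 above MDH2 on G0 (technical SD of the gap 0.64) and 0.23 above it on Y5. IDP1, the mitochondrial NADP-dependent isocitrate dehydrogenase, differed by −1.69 on Y5 and −0.86 on Y10, and OSM1, a fumarate reductase, by −1.31 on Y5.

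Among the 8 mitochondrial carriers of cycle acids, 0 were at least 1 unit lower on Y5 (10.5% of all genes) and 1 was higher (4.02%), OAC1, the oxaloacetate carrier, by 1.03. On Y10 2 of 5 were lower (12.1%), ODC2, an oxodicarboxylate carrier (−1.94), and CTP1, the citrate carrier (−1.37). YHM2, a citrate and oxoglutarate carrier, differed by −0.67 and −0.91. Among 11 regulators and assembly factors, 1 was at least 1 unit higher on Y5 (4.02% of all genes), HAP4, the activating subunit of the complex that turns on respiratory genes, by 1.11. On Y10 1 of 10 was lower (12.1%), a count near that share, namely RTG2, the sensor of the retrograde pathway that controls CIT1, ACO1 and IDH genes when respiration fails, with differences from G0 of −0.90 on Y5 and −1.16 on Y10. HAP5, a DNA-binding subunit of the HAP complex, differed from G0 by −0.99 on Y10, and RTG1, a transcription factor of the retrograde pathway, by 0.70 on Y5 and 0.74 on Y10. The median differences of this list were 0.09 and −0.07, near those of all genes.

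**Figure D4:**
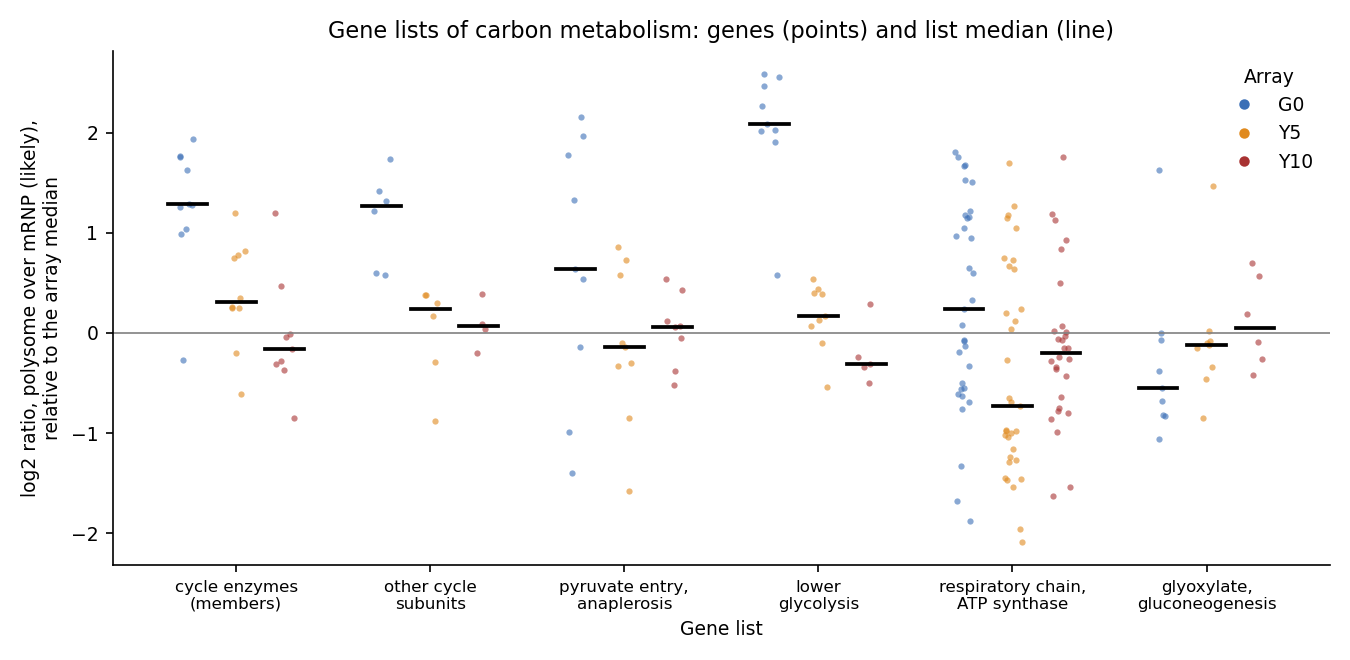
Log2 ratio (vertical axis, relative to the array median) of the genes (points) in each list (horizontal axis) on G0, Y5 and Y10, with the list median as a black line. Cycle enzymes and other cycle subunits have G0 medians of 1.29 and 1.27, between lower glycolysis (2.09) and the respiratory chain (0.24). The lists are not matched for gene length, and the respiratory list holds many short genes.

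On G0 the median of the cycle enzymes, 1.29, lay between those of lower glycolysis and the respiratory chain. Lower glycolysis had a median of 2.09 on G0, 0.17 on Y5 (9 genes each) and −0.31 on Y10 (5 genes), with 8 of 9 genes at least 1 unit lower on Y5 (10.5% of all genes). Its Y5 minus G0 median was −1.88, against −0.74 for the cycle enzymes. G0 is subtracted in both, and all genes of lower glycolysis but PYK2 were in the top 10% on G0. Of genes outside the 10 in that top 10%, 42.1% were at least 1 unit lower on Y5, with a median of −0.76. Their G0 median was 1.29, so they are not matched to the higher start of lower glycolysis. The respiratory chain and ATP synthase had medians of 0.24, −0.73 (33 genes each) and −0.20 (28 genes), with 10 of 33 at least 1 unit lower (10.5%) and 2 higher (4.02%) on Y5. The lists were not matched for length, and longer genes had higher ratios on each array. Respiratory genes of 930 bases or more ran from 1.05 (NDE1) to 1.76 (COR1) on G0, around the median of the cycle enzymes. Shorter ones ran from −1.88 (ATP15) to 1.81 (RIP1). The glyoxylate cycle and gluconeogenesis list had −0.55, −0.12 (9 genes each) and 0.05 (6 genes), and its Y10 minus G0 median was 0.77 with 2 of 6 at least 1 unit higher (6.51% of all genes). These were MDH2 (1.09) and FBP1 (1.01). MDH2, CIT2 and IDP2 are also in the list of isoenzymes above, so these lists are not separate observations. None of these differences between lists could be tested with 1 array per sample, and all the lists share the same G0 array.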

How the data were processed

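RNA of the mRNP and polysome fractions of 3 yeast samples was compared on 3 two-colour arrays. The deposited table gave a log ratio per spot, read as log2, and how the authors made these values (scanner, background, normalization, filter) is not given in the sources used here. Its column medians lay between 0.067 and 0.0735, with values for 8700, 8734 and 7822 of 8832 spots. No channel intensities were used, so signal over background is unknown, and precision is limited by there being 3 arrays.

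Genes were named by the array's annotation (6623 spots with 1 symbol, 0 with several and 2209 with none), and all 5574 genes matched the RefSeq table of assembly R64 by gene identifier. No coordinates or sequences are given. Y10 was renumbered from 32 sectors of 252 spots to sectors of 276, and its first 192 spots per sector were used (6008 spots, 4446 genes). The last 60 spots, best placed 24 further on (r with Y5 0.201), served as an alternative. Arrays were centred on their medians and spots averaged per gene with Python 3.11.15, pandas 2.3.3 and numpy 2.4.6. The size rule was 1 log2 unit, a 2-fold change. Alternatives changed the centring, scaling, logarithm, spots and size rule. The scripts were tested on simulated data. The simulated Y10 array was written in the assumed numbering, so this could not test the numbering of the real array.

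The members and lists were chosen with earlier results of these data known. Named genes were all members, up to 4 genes per pathway list farthest from 0 in the differences from G0, and the 5 nearest profiles. SDH1, KGD4, LPD1 and PDX1 were named after their values were seen, to complete their enzymes.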

Additional observations from a re-analysis of the deposited data

Results flagged for a closer look

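Several cycle enzymes had ratios on opposite sides of the array median on different arrays. With 1 array per sample, these differences were not tested. Between G0 and Y5 this held for IDH2 (above on G0 and below on Y5, a difference of −2.37). Between G0 and Y10 it held for IDH1 (−1.58), IDH2 (−1.92), KGD1 (−1.08), KGD2 (−2.0), LSC1 (−1.01) and FUM1 (−1.59), all above on G0 and below on Y10. Between Y5 and Y10 it held for IDH1 (−1.06), KGD1 (−0.87), KGD2 (−0.63), LSC1 (−0.27) and FUM1 (−0.67), all above on Y5 and below on Y10. The Y10 ratios of all these genes lay within the technical SD of 0.44 of the median. They were −0.01 for LSC1, −0.05 for KGD1, −0.16 for IDH2, −0.28 for IDH1, −0.31 for FUM1 and −0.37 for KGD2.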

How the results depend on the processing

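No paired analysis was possible because each group had a single array and no test was run. Apart from the deposited row numbers, the median of the members over the settings run ranged from −1.06 to −0.54 (Y5 minus G0), from −2.12 to −1.02 (Y10 minus G0) and from −0.94 to −0.16 (Y10 minus Y5), so no sign turned. Read as natural logarithms, the values gave a G0 median of 1.86, a Y10 minus G0 median of −2.12, and 6 members at least 1 log2 unit lower for Y5 minus G0 (17.6% of all genes) and 3 for Y10 minus Y5 (11.3%). A size rule of 0.58 log2 units (1.5-fold) gave 6 lower members for Y5 minus G0 (21% of all genes) and 6 for Y10 minus Y5 (15%). Sector centring left 0 members past 1 unit for Y10 minus Y5, against 1. The deposited row numbers of Y10 gave 4 of 8 for Y10 minus G0 (15.5% of all genes lower), against 7 of 9, under a numbering unrelated to the other arrays. The alternative that used only spots with a value on both arrays was added after seeing the data. For single genes, KGD1 and LSC1 fell short of 1 unit for Y10 minus G0 in 4 and 3 of 10 settings, ACO1, IDH1 and KGD2 in 1 each, and FUM1 in 0 of 10 and IDH2 in 0 of 9. Except for IDH2, these counts include the deposited row numbers of Y10. That numbering was unrelated to the other arrays, so a call lost or kept under it says nothing about the gene. The single losses of ACO1 and KGD2 fell under it, and that of IDH1 under sector centring. Not every setting could lose a call, as the natural logarithm enlarges each difference and the choice of spots leaves a gene with 1 spot unchanged. Taking for KGD1 the spot of lowest row number on each array gave differences of −1.83 from G0 and −1.51 from Y5 on Y10, since different spots were then compared. The cause of the other changes was not tested.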
